A study of Mus musculus with 33 samples.

Results

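The 10 genes described here remove reactive oxygen species or set how much of that machinery a cell makes, and they were taken by symbol from the 55376 gene symbols counted in each library. They are the transcription factors Foxo3 and Nfe2l2, the superoxide dismutases Sod1 and Sod2, catalase (Cat), the glutathione peroxidases Gpx1 and Gpx4, the peroxiredoxins Prdx1 and Prdx3, and the thioredoxin inhibitor Txnip. Total RNA was sequenced in 33 libraries of sorted bone marrow cells from old C57BL/6 male mice, 24 to 29 months of age by the study's methods, with no transgene or mutant allele named for them. O-WT mice were untreated, O-NR mice drank water with nicotinamide riboside (NR, a precursor of NAD+) for 4 to 6 weeks, and O-NR-RC mice were taken after 2 months without the supplement. Cohort 2 holds 4 O-WT and 4 O-NR libraries each of hematopoietic stem cells (HSC), common lymphoid progenitors (CLP) and granulocyte-monocyte progenitors (GMP), 24 in all, and cohort 1 has HSCs only, in 9 libraries (O-WT 2, O-NR 4, O-NR-RC 3). The GMP libraries are named so in their titles, while their source field names common myeloid progenitors. Nothing in the sources used here says which mouse each library came from, so the p-values measure the spread between these libraries.

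Superoxide that leaks from respiration is turned into hydrogen peroxide by the superoxide dismutases, Sod1 mainly in the cytosol and Sod2 in the mitochondrial matrix, and the peroxide is then broken down by catalase, by glutathione peroxidases and by peroxiredoxins, which draw their electrons from glutathione or from thioredoxin. Txnip binds reduced thioredoxin and blocks it, and also restrains glucose uptake. Nfe2l2 (NRF2) is held down by Keap1 until oxidants release it to switch on antioxidant genes, and Foxo3 is a forkhead factor that keeps HSCs quiescent and their oxidant load low.

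Counted reads ran from 4792380 to 23816042 per library, and levels are given as CPM, a library's counts scaled to the same total. The summed level of 8 HSC markers was 1542 to 1781 CPM in the HSC libraries of cohort 2, against 80.6 to 187 in CLPs and 44.1 to 75.3 in GMPs. The 8 CLP markers summed to 2649 to 4249 CPM in CLPs, against 53.5 to 92.1 in HSCs and 36.4 to 52.7 in GMPs. The 8 GMP markers summed to 17438 to 20047 CPM in GMPs, against 322 to 622 in CLPs and 103 to 131 in HSCs. All 8 markers of each list were above 3 CPM at the median in its own cells, and 1 ran against its list, the CLP marker Il2rg with a mean of 35.1 CPM in HSCs and 22.4 in CLPs. The GMP marker Prtn3 had a mean of 97.1 CPM in HSCs, above 17 in CLPs, and 740 in GMPs. The summed level of 1971 olfactory and vomeronasal receptor genes, which blood cells are not known to use, was 858 to 2376 CPM in GMPs, 1502 to 4671 in HSCs of cohort 2 and 2115 to 8303 in CLPs. In cohort 1 it was 4445 to 15260 CPM, and 4 of 9 libraries stood above 10000 CPM. Some markers of other cells moved with the cell types. Basophil and mast cell markers summed to 92.3 to 446 CPM in GMPs, against 3.11 to 8.09 in HSCs. Macrophage and monocyte markers gave 147 to 383 CPM in GMPs, against 5.67 to 25.0 in HSCs. B and plasma cell markers gave 626 to 872 CPM in CLPs, against 73.4 to 657 in HSCs. Neutrophil markers gave 15.8 to 181 CPM in CLPs, 9.16 to 17.8 in HSCs and 15.3 to 41.6 in GMPs. T and NK cell markers gave 10.9 to 22.9 CPM in HSCs, 36.7 to 54.5 in CLPs and 77.2 to 119 in GMPs. Megakaryocyte markers gave 101 to 156 CPM in HSCs, 10.6 to 35.9 in CLPs and 29.3 to 112 in GMPs, and erythroid markers stayed at or below 52.1 CPM in all 3. None of these genes was at 0 in every library of a cell type. Some marker sums also parted O-WT from O-NR. B and plasma cell markers gave 179 to 657 CPM in O-WT HSCs of cohort 2 and 73.4 to 111 in O-NR. The 8 GMP markers gave 17438 to 18891 CPM in O-WT GMPs and 18934 to 20047 in O-NR. Megakaryocyte markers gave 168 to 173 CPM in O-WT HSCs of cohort 1 and 94.3 to 125 in O-NR. The part of these markers in the differences between cell types or treatments was not tested, nor was that of the receptor counts between cell types. Between treatments, fits with the receptor gene level as a covariate are described below, and its part was not tested beyond such alternative fits. In bulk samples fewer cells of a type and less RNA per cell cannot be told apart.

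To compare levels between genes, CPM was divided by the exon length of each gene in kilobases. In O-WT HSCs of cohort 2, Txnip had the highest level per kilobase with a mean of 289 CPM, followed by Gpx1 with 111 and Gpx4 with 41.3, and Sod2 had the lowest with 4.72. Between them lay Sod1 (29.4), Foxo3 (24.9), Cat (24.7), Prdx1 (23.3), Nfe2l2 (21.0) and Prdx3 (13.9). From Gpx4 down to Nfe2l2 each gene overlapped the next in its library range, so these 6 places are not resolved, while the other neighbours did not overlap. In CLPs the order per kilobase was led by Gpx1 (155), Prdx1 (36.6) and Txnip (34.7), and from Prdx1 down to Sod1, over Txnip, Gpx4 and Cat, each gene overlapped the next. GMPs were led by Gpx1 with 382 CPM per kilobase, ahead of Gpx4 (43.5) and Sod1 (33.1), while Txnip, first in HSCs, stood seventh with 17 and overlapped its neighbours Prdx3 and Nfe2l2. The O-NR groups of cohort 2 gave the same order as O-WT in CLPs and GMPs, and in HSCs Prdx1 and Cat exchanged the sixth and seventh places. All 9 HSC libraries of cohort 1 fell in groups whose mean order was led, as in cohort 2, by Txnip, Gpx1 and Gpx4, with Sod2 last, and the whole order of levels is a description of means with no test.

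**Figure D1:**
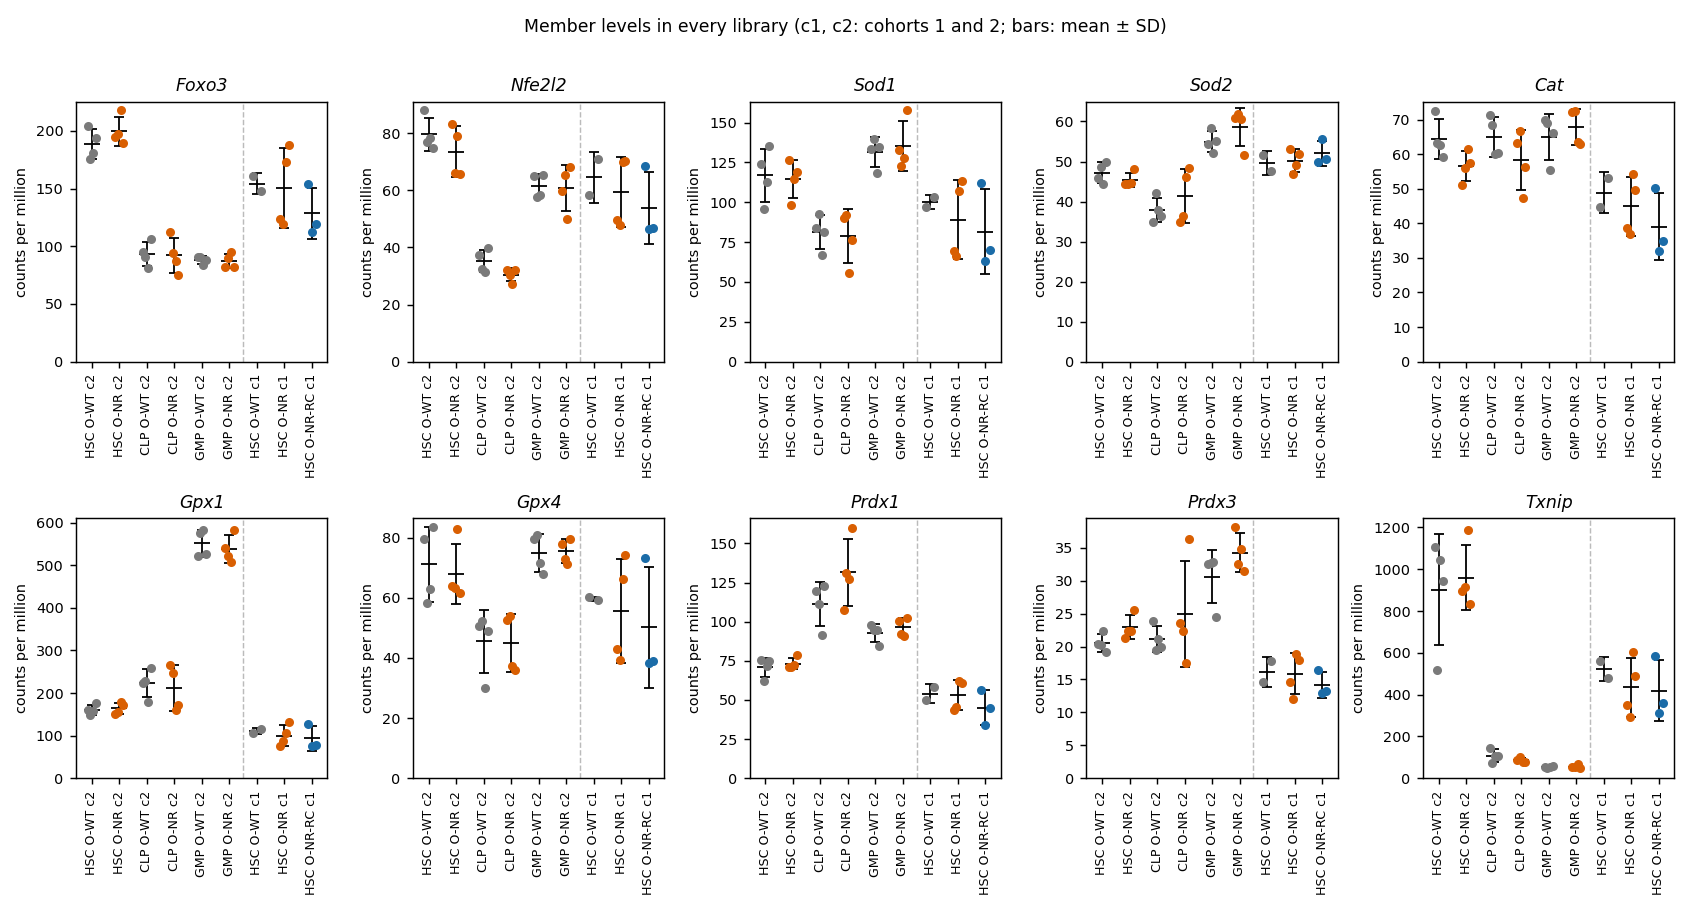
CPM of the 10 genes (y axis, linear, starting at 0) in each of the 33 libraries, grouped by cell type, treatment and cohort (x axis), with bars for the mean and the SD. Txnip spans 516 to 1186 CPM in HSCs of cohort 2 and 47.6 to 65.9 CPM in GMPs, while Gpx1 spans 148 to 179 CPM in HSCs and 508 to 583 CPM in GMPs.

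Each pair of cell types was compared within O-WT and again within O-NR, with edgeR's quasi-likelihood test on TMM scaling. A difference was called at a Benjamini-Hochberg adjusted p below 0.05 (edgeR adjusted p in what follows). Between CLPs and HSCs, 6 of the 10 genes were called in O-WT, all lower in CLPs (Foxo3, Nfe2l2, Sod1, Sod2, Gpx4 and Txnip), beside 27% of all 19828 genes tested. This count fell to 3 without CLP O-WT replicate 2 and to 3 without the filter on low counts. In O-NR 6 were called, 5 lower and Prdx1 higher, beside 35.7% of all genes. Between GMPs and HSCs, 7 genes were called in O-WT, 2 lower in GMPs (Foxo3 and Txnip) and 5 higher (Sod1, Sod2, Gpx1, Prdx1 and Prdx3), against 59% of all genes, and 4 without the filter on low counts. In O-NR the same 7 and also Cat and Gpx4, both higher in GMPs, were called, 9 against 60.3% of all genes. CLPs and GMPs differed in 8 genes in O-WT (65.2% of all genes called) and in the same 8 in O-NR (56.2%), of which only Txnip was higher in CLPs. Among all genes called, those higher in CLPs than in HSCs were 1832 of 5363 in O-WT and 2733 of 6356 in O-NR. Higher in GMPs than in HSCs were 4459 of 9326 and 4761 of 9187. Higher in CLPs than in GMPs were 5841 of 10910 and 4781 of 8793. The medians over the 10 genes were -0.57, 0.37 and -0.90 on the log2 scale in O-WT for CLPs against HSCs, GMPs against HSCs and CLPs against GMPs, beside 0.08, -0.22 and 0.10 over all genes tested. In O-NR they were -0.35, 0.49 and -0.63, beside 0.08, -0.08 and 0.12.

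These counts depend on how libraries are scaled. Against scaling by total counts, TMM shifted log2 differences by -0.16 for CLPs against HSCs, 0.28 for GMPs against HSCs and -0.40 for CLPs against GMPs in O-WT, and by -0.02, 0.26 and -0.19 in O-NR. The medians of all genes under total counts were 0.25, -0.51 and 0.51 for CLPs against HSCs, GMPs against HSCs and CLPs against GMPs in O-WT, and 0.09, -0.35 and 0.30 in O-NR. With total counts the split of higher to lower calls among the 10 genes was 2 to 6 in O-WT and 2 to 5 in O-NR for CLPs against HSCs. It was 4 to 3 and 6 to 3 for GMPs against HSCs, and 2 to 6 and 2 to 5 for CLPs against GMPs. Called in both treatments under all 5 scalings tried were Foxo3, Nfe2l2, Gpx4 and Txnip, lower in CLPs than in HSCs. The same held in GMPs against HSCs for Foxo3 and Txnip, lower, and for Gpx1, Prdx1 and Prdx3, higher. In CLPs against GMPs it held for Nfe2l2, Sod1, Sod2, Gpx1 and Gpx4, lower, and for Txnip, higher. The share of all genes called is not given here for total counts or for all 5 scalings together. These counts are therefore not shown to be particular to the 10 genes.

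**Figure D2:**
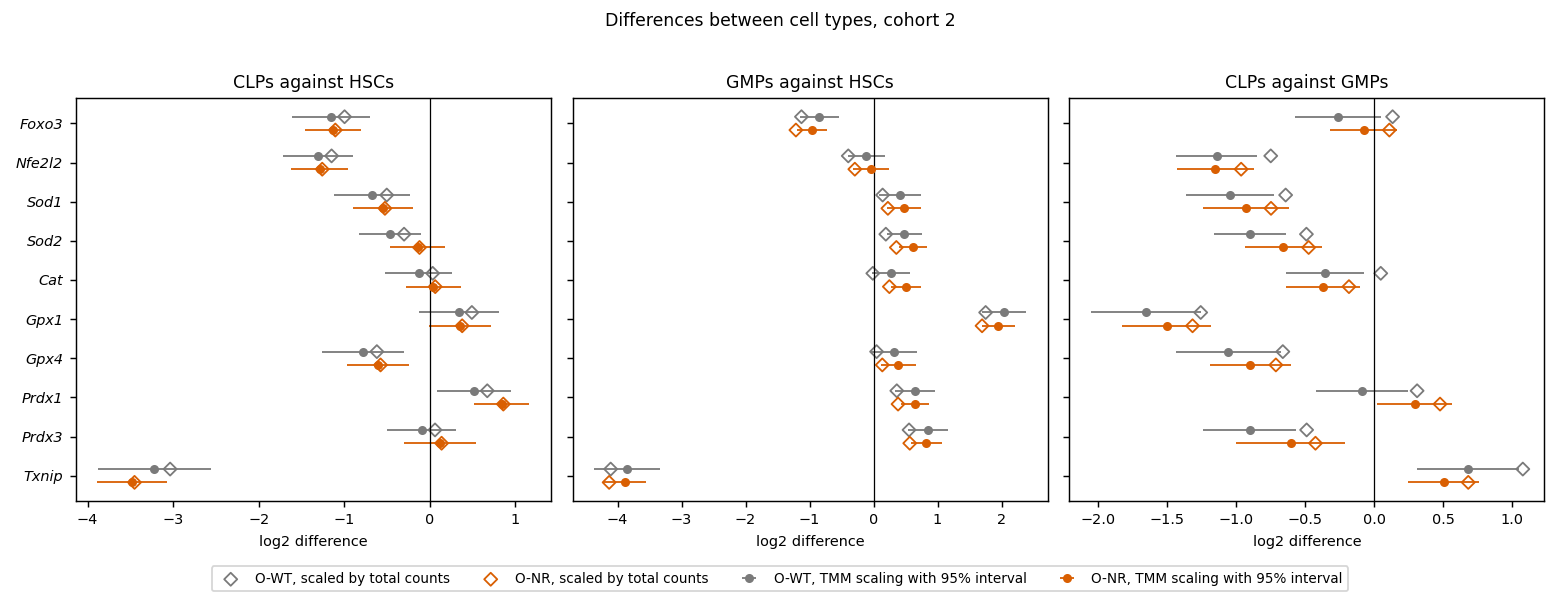
Log2 differences between cell types of cohort 2 (x axis) for the 10 genes (y axis), in O-WT (grey) and O-NR (orange), as filled circles on TMM scaling with 95% intervals and as open diamonds when scaled by total counts. Txnip lies far to the left in both comparisons with HSCs (-3.22 and -3.85 in O-WT), Gpx1 to the right in GMPs (2.04). The diamonds of Foxo3, Cat and Prdx1 lie right of 0 for CLPs against GMPs in O-WT, where their circles lie left of it.

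Txnip, the arrestin-like protein that blocks thioredoxin, differed most from HSCs in both progenitors. It lies at chr3:96557957-96561883 on the forward strand (GRCm38, Gencode M21). Txnip stood at 1107, 516, 1043 and 943 CPM in the HSC libraries of O-WT mice in cohort 2 and 896, 916, 1186 and 835 CPM in those of O-NR mice. The CLP libraries held 146, 74.1, 106 and 107 CPM (O-WT) and 89.2, 103, 78.5 and 75.8 CPM (O-NR). In GMPs it stood at 55.8, 47.6, 52.5 and 56.7 CPM (O-WT) and 51.9, 53.3, 65.9 and 49.7 CPM (O-NR). Every HSC library was above every CLP library, and every CLP library above every GMP library. The log2 difference between CLPs and HSCs was -3.22 ± 0.32 (SE) in O-WT, 9.31-fold lower in CLPs (edgeR adjusted p = 8.95e-09), and -3.48 ± 0.20 in O-NR, 11.2-fold lower (edgeR adjusted p = 6.42e-14). GMPs were lower than HSCs by 14.5-fold in O-WT (-3.85 ± 0.25 on the log2 scale, edgeR adjusted p = 3.75e-11) and 14.8-fold in O-NR (-3.89 ± 0.16, edgeR adjusted p = 2.71e-13). CLPs were above GMPs by 0.68 ± 0.18 in O-WT (edgeR adjusted p = 0.00328) and 0.50 ± 0.12 in O-NR (edgeR adjusted p = 0.00294). These calls were lost without the filter on low counts (0.30 in both, edgeR adjusted p = 0.498 and 0.249). The lowest HSC library, O-WT replicate 2 with 516 CPM, also had the highest receptor gene level of the HSC libraries of cohort 2, 4671 CPM. Set against thioredoxin itself within each library, the ratio of Txnip to Txn1 CPM was 18.4 to 38.6 in HSCs, 1.55 to 3.31 in CLPs and 0.774 to 1.16 in GMPs, with no overlap between the cell types. An antisense gene, Gm15441, covers 606 exon bases of Txnip (19.4%), and with its median of 3.35 and maximum of 15.9 CPM over the 33 libraries it was far below Txnip. The strand setting of the counting is not given in the sources used here, so reads of the 2 genes could be told apart only if strand was used.

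The RefSeq windows from 250 bases before to 50 bases after the start sites (GRCm38.p6) were found for all 10 genes, 13 windows in all. They were searched on both strands for a FoxO core (TGTTTAC), the core of the antioxidant response element that Nfe2l2 binds (TGACNNNGC) and an E-box (CACGTG). A FoxO core stood in the Txnip window alone, read on the reverse strand as GTAAACA at bases -121 to -115, and 3.65% of all 32817 windows hold one. The antioxidant core stood in the windows of Nfe2l2 itself (-240 to -232), of Prdx1 (-133 to -125, reverse strand) and of Sod1 (-56 to -48, reverse strand), and 12.4% of all windows hold it. None of the members' windows held the E-box, which 7.15% of all windows do. Positions are counted from the RefSeq start site. A match describes letters in a window, not binding. The parts of these 4 windows that lie before the annotated gene start are printed 5′ to 3′ on the gene's strand, as RefSeq gives them, because the regulators Foxo3 and Nfe2l2 are themselves members, and capitals mark the matches.
Txnip, chr3:96557707-96557956, forward strand: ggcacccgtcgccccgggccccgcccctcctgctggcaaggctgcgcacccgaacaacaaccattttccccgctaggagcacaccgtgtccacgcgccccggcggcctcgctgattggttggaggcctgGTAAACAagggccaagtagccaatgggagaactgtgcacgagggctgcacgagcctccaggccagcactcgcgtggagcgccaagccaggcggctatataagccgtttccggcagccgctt
Nfe2l2, chr2:75704664-75704913, reverse strand: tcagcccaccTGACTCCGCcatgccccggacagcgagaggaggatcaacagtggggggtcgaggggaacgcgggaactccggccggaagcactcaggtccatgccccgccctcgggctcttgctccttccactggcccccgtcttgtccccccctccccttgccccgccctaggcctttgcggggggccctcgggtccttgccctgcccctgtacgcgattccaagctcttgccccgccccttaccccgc
Prdx1, chr4:116685349-116685543, forward strand: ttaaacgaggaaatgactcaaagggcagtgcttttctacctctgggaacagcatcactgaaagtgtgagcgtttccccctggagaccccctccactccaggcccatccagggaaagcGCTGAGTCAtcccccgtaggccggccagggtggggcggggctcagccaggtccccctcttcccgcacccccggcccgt
Sod1, chr16:90220512-90220753, forward strand: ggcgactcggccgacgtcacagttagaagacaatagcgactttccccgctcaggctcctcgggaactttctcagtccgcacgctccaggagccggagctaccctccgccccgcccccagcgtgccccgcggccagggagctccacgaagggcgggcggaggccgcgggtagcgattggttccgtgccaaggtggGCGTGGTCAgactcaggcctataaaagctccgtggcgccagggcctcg

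Foxo3 (chr10:42181841-42276755, reverse strand) was highest in HSCs. It was measured at 204, 176, 181 and 194 CPM in the HSC libraries of O-WT mice in cohort 2 and 195, 197, 218 and 189 CPM in those of O-NR mice. CLPs had 94.8, 90.9, 80.8 and 106 CPM (O-WT) and 112, 94.1, 86.9 and 75.3 CPM (O-NR). GMPs had 90.2, 90.4, 83.4 and 88.0 CPM (O-WT) and 82.2, 89.7, 94.7 and 81.9 CPM (O-NR). No CLP or GMP library reached the lowest HSC library of cohort 2, while the CLP and GMP ranges overlapped. CLPs were lower than HSCs by 2.23-fold in O-WT (-1.15 ± 0.22 log2, edgeR adjusted p = 1.61e-04) and 2.19-fold in O-NR (-1.13 ± 0.16, edgeR adjusted p = 1.47e-06). In GMPs it was 1.80-fold lower than in HSCs in O-WT (-0.85 ± 0.15, edgeR adjusted p = 4.88e-05) and 1.94-fold lower in O-NR (-0.96 ± 0.11, edgeR adjusted p = 4.32e-07). Without the filter on low counts the O-WT value was -0.66 with an edgeR adjusted p of 0.132. CLPs and GMPs did not pass the test (-0.26 in O-WT and -0.08 in O-NR, and 0.13 and 0.11 with total counts). In O-WT, without CLP O-WT replicate 4 or GMP O-WT replicate 4 it was called (-0.45 to -0.41, edgeR adjusted p from 0.0268 to 0.04996). The ratio of Txnip to Foxo3 CPM within a library was 2.93 to 5.76 in HSCs, 0.797 to 1.54 in CLPs and 0.527 to 0.696 in GMPs of cohort 2.

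Nfe2l2 (chr2:75675513-75704641, reverse strand) parted from Foxo3 in GMPs. It stood at 88.0, 77.1, 78.5 and 74.8 CPM in the HSC libraries of O-WT mice in cohort 2 and 83.3, 66.2, 79.1 and 65.8 CPM in those of O-NR mice. In CLP libraries it came to 37.3, 32.6, 31.5 and 39.7 CPM (O-WT) and 32.1, 30.5, 27.3 and 32.0 CPM (O-NR). In GMP libraries it came to 65.0, 57.8, 58.5 and 65.3 CPM (O-WT) and 59.6, 65.2, 50.1 and 68.3 CPM (O-NR). CLPs were lowest, with every library below every HSC and GMP library, and the GMP and HSC ranges overlapped. It was 2.47-fold lower in CLPs than in HSCs in O-WT (-1.30 ± 0.20, edgeR adjusted p = 8.23e-06) and 2.44-fold lower in O-NR (-1.29 ± 0.16, edgeR adjusted p = 2.30e-07). Against GMPs, CLPs gave log2 differences of -1.14 ± 0.14 in O-WT (edgeR adjusted p = 2.82e-06) and -1.15 ± 0.13 in O-NR (edgeR adjusted p = 2.73e-06). GMPs and HSCs did not pass the test on TMM scaling (-0.12 and -0.04), whereas with total counts GMPs were called lower (-0.40 and -0.29). Within a library the ratio of Foxo3 to Nfe2l2 CPM was 2.28 to 2.98 in HSCs and 2.36 to 3.49 in CLPs, and 1.20 to 1.89 in GMPs, below both.

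The cytosolic Sod1 (chr16:90220754-90226329, forward strand) was lowest in CLPs. Its levels were 124, 96, 112 and 135 CPM in the HSC libraries of O-WT mice in cohort 2 and 127, 98.2, 114 and 119 CPM in those of O-NR mice. It was at 84.1, 92.9, 66.8 and 81.5 CPM (O-WT) and 90.4, 92.3, 55.9 and 76.5 CPM (O-NR) in CLPs. GMPs gave 133, 139.7, 118 and 134 CPM (O-WT) and 133, 123, 128 and 158 CPM (O-NR). The highest CLP library lay below the lowest HSC and GMP libraries. CLPs were lower than HSCs (-0.67 ± 0.22 in O-WT, edgeR adjusted p = 0.0208, and -0.55 ± 0.17 in O-NR, edgeR adjusted p = 0.0139). They were also lower than GMPs (-1.04 ± 0.15, edgeR adjusted p = 1.93e-05, and -0.93 ± 0.15, edgeR adjusted p = 8.06e-05). GMPs were above HSCs by 0.41 ± 0.16 in O-WT (edgeR adjusted p = 0.033) and 0.48 ± 0.12 in O-NR (edgeR adjusted p = 0.00258), and with total counts by 0.14, which was not called, and 0.22. For CLPs against HSCs in O-WT, as for GMPs against HSCs in O-WT, the call rested on single libraries. The former was lost when any 1 of HSC O-WT replicate 1 or 4 or CLP O-WT replicate 2 was left out (-0.65 to -0.60, edgeR adjusted p from 0.0516 to 0.117). The latter was lost when any 1 of HSC O-WT replicate 2 or 3 or GMP O-WT replicate 1 or 2 was left out (0.28 to 0.43, edgeR adjusted p from 0.0817 to 0.103). That of CLPs against HSCs in O-NR was lost when HSC O-NR replicate 1 was left out (-0.51, edgeR adjusted p = 0.0559).

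The mitochondrial Sod2 (chr17:13006846-13040063, forward strand) moved within a narrower range. Its 8 HSC libraries of cohort 2 ran from 44.3 to 50.002 CPM, its CLP libraries from 34.8 to 48.3 and its GMP libraries from 51.5 to 61.8. All GMP libraries were above all HSC libraries, and the CLP and HSC ranges overlapped. GMPs were above HSCs by 0.48 ± 0.13 in O-WT (edgeR adjusted p = 0.00358) and 0.62 ± 0.11 in O-NR (edgeR adjusted p = 4.44e-05). CLPs were below GMPs with -0.90 ± 0.12 (edgeR adjusted p = 1.02e-05) and -0.66 ± 0.13 (edgeR adjusted p = 6.77e-04). CLPs were called lower than HSCs in O-WT with -0.47 ± 0.17, just inside the threshold (edgeR adjusted p = 0.0478), and O-NR gave -0.14 ± 0.16 (edgeR adjusted p = 0.494). The O-WT call was lost when any 1 of HSC O-WT replicate 1, 3 or 4 or CLP O-WT replicate 1, 2 or 3 was left out (-0.56 to -0.38, edgeR adjusted p from 0.0655 to 0.199). The ratio of Sod1 to Sod2 CPM was 1.98 to 2.86 in HSCs, 1.21 to 2.60 in CLPs and 1.99 to 3.06 in GMPs of cohort 2, overlapping in all 3.

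Catalase, the peroxisomal enzyme that splits hydrogen peroxide, is encoded by Cat (chr2:103453849-103485160, reverse strand) and lay within overlapping ranges in the 3 cell types. Its libraries ran from 51.0 to 72.5 CPM in HSCs of cohort 2, 47.2 to 71.4 in CLPs and 55.4 to 72.4 in GMPs, all overlapping. Between CLPs and HSCs it did not pass the test (-0.13 and 0.04). GMPs were called above HSCs in O-NR (0.50 ± 0.11, edgeR adjusted p = 7.27e-04), with 0.27 ± 0.14 in O-WT (edgeR adjusted p = 0.113). CLPs were called below GMPs (-0.36 ± 0.14 in O-WT, edgeR adjusted p = 0.0287, and -0.37 ± 0.13 in O-NR, edgeR adjusted p = 0.0224), which total counts did not call (0.05 and -0.18). The O-WT call was lost when any 1 of GMP O-WT replicate 1 or 2 was left out (-0.38 to -0.37, edgeR adjusted p from 0.103 to 0.112). The O-NR call was lost when any 1 of CLP O-NR replicate 3 or GMP O-NR replicate 1 or 2 was left out (-0.37 to -0.28, edgeR adjusted p from 0.0527 to 0.0606). For GMPs against HSCs in O-WT, without HSC O-WT replicate 1 or GMP O-WT replicate 4 it was called (0.33 to 0.45, edgeR adjusted p from 0.00763 to 0.0384). The ratio of Cat to Gpx1 CPM within a library was 0.335 to 0.455 in HSCs, 0.232 to 0.335 in CLPs and 0.0952 to 0.139 in GMPs of cohort 2, the last without overlap with the others.

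Gpx1 (chr9:108338903-108340343, forward strand), the abundant cytosolic and mitochondrial glutathione peroxidase, ran opposite to Txnip. It was counted at 159, 148, 158 and 177 CPM in the HSC libraries of O-WT mice in cohort 2 and 151, 156, 179 and 171 CPM in those of O-NR mice. CLPs lay at 223, 229, 179 and 259 CPM (O-WT) and 266, 248, 161 and 171 CPM (O-NR). GMPs lay at 521, 576, 582 and 525 CPM (O-WT) and 540.3, 522, 508 and 583 CPM (O-NR). All 8 GMP libraries were far above the other cell types, and the CLP range overlapped the HSC range at its lower end. GMPs exceeded HSCs 4.10-fold in O-WT (2.04 ± 0.17, edgeR adjusted p = 1.39e-09) and 3.87-fold in O-NR (1.95 ± 0.12, edgeR adjusted p = 5.85e-11). CLPs were 3.15-fold below GMPs in O-WT (-1.66 ± 0.19, edgeR adjusted p = 1.20e-06) and 2.83-fold below in O-NR (-1.50 ± 0.15, edgeR adjusted p = 7.36e-07). CLPs against HSCs gave 0.34 ± 0.23 (edgeR adjusted p = 0.282) and 0.36 ± 0.18 (edgeR adjusted p = 0.118), and total counts called both higher in CLPs (0.49 and 0.38). In O-WT, without CLP O-WT replicate 3 it was called (0.50, edgeR adjusted p = 0.0469), and in O-NR, without CLP O-NR replicate 3 it was called (0.42, edgeR adjusted p = 0.04).

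Gpx4 (chr10:80047166-80056439, forward strand) is the glutathione peroxidase that repairs oxidised membrane lipids and holds off ferroptosis. Its levels stood at 79.5, 58.3, 63.0 and 83.7 CPM in the HSC libraries of O-WT mice in cohort 2 and 63.8, 63.2, 82.7 and 61.5 CPM in those of O-NR mice. Values in CLPs were 50.7, 52.3, 30.05 and 49.0 CPM (O-WT) and 52.6, 53.9, 37.2 and 36.2 CPM (O-NR). Values in GMPs were 79.5, 80.9, 71.6 and 67.8 CPM (O-WT) and 78.0, 72.8, 71.4 and 79.7 CPM (O-NR). CLPs were lowest, and every CLP library was below every HSC and GMP library. CLPs were below HSCs (-0.78 ± 0.23 in O-WT, edgeR adjusted p = 0.012, and -0.61 ± 0.18 in O-NR, edgeR adjusted p = 0.00796). They were below GMPs too (-1.06 ± 0.18, edgeR adjusted p = 1.08e-04, and -0.90 ± 0.14, edgeR adjusted p = 6.37e-05). The O-WT call against HSCs was lost when CLP O-WT replicate 2 was left out (-0.69, edgeR adjusted p = 0.0812). The O-NR call was lost when HSC O-NR replicate 3 was left out (-0.45, edgeR adjusted p = 0.0735). Without the filter on low counts the O-WT call was also lost (edgeR adjusted p = 0.066). GMPs against HSCs gave 0.32 ± 0.17 in O-WT (edgeR adjusted p = 0.112) and were called in O-NR with 0.39 ± 0.13 (edgeR adjusted p = 0.015), a call that total counts did not make (0.14). In O-WT, without HSC O-WT replicate 1 or GMP O-WT replicate 4 it was called (0.44 to 0.48, edgeR adjusted p from 0.0182 to 0.0186). The O-NR call of GMPs was lost when HSC O-NR replicate 4 was left out (0.33, edgeR adjusted p = 0.0582). Within a library, which no scaling touches, the ratio of Gpx1 to Gpx4 CPM was 2.01 to 2.78 in HSCs, 4.33 to 5.97 in CLPs and 6.55 to 8.13 in GMPs of cohort 2, without overlap. The processed copies Gpx4-ps1 and Gpx4-ps2 reached at most 2.99 and 3.45 CPM, and how the counting divided reads between near-identical copies is not given in the sources used here.

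Prdx1 (chr4:116685544-116700822, forward strand), a cytosolic peroxiredoxin that uses thioredoxin, was lowest in HSCs. It was found at 75.4, 61.9, 71.5 and 74.7 CPM in the HSC libraries of O-WT mice in cohort 2 and 71.0, 70.9, 72.5 and 78.4 CPM in those of O-NR mice. CLP levels were 119.7, 111, 91.8 and 123 CPM (O-WT) and 108, 131, 127 and 159.7 CPM (O-NR). GMP levels were 97.8, 94.4, 94.8 and 84.6 CPM (O-WT) and 101, 91.9, 91.0 and 103 CPM (O-NR). All HSC libraries were below all CLP and GMP libraries, and the CLP and GMP ranges overlapped. GMPs were above HSCs by 0.64 ± 0.15 in O-WT (edgeR adjusted p = 9.94e-04) and 0.64 ± 0.10 in O-NR (edgeR adjusted p = 2.60e-05). CLPs were called above HSCs in O-NR with 0.84 ± 0.16 (edgeR adjusted p = 8.70e-05), and O-WT gave 0.51 ± 0.21 (edgeR adjusted p = 0.0723). The O-WT value was called with same-numbered libraries paired in a replicate block (0.50, edgeR adjusted p = 0.0112) and with total counts (0.67), and without CLP O-WT replicate 3 it was called (0.67, edgeR adjusted p = 0.00405). CLPs against GMPs gave -0.09 in O-WT and 0.29 ± 0.13 in O-NR (edgeR adjusted p = 0.0593). The latter was called in the paired fit (0.28, edgeR adjusted p = 0.0387), and with total counts CLPs were called higher in both (0.31 and 0.48). In O-NR, without CLP O-NR replicate 1 it was called (0.38, edgeR adjusted p = 0.0227).

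Prdx3 (chr19:60864051-60874556, reverse strand), the peroxiredoxin of the mitochondrial matrix, was the lowest of the 10 genes in CPM. HSC libraries of cohort 2 ran from 19.1 to 25.5 CPM, CLP libraries from 17.5 to 36.3 and GMP libraries from 24.5 to 38.1. Apart from the lowest GMP and the highest CLP library, the GMP libraries lay above the rest. GMPs were above HSCs by 0.85 ± 0.15 in O-WT (edgeR adjusted p = 6.81e-05) and 0.82 ± 0.12 in O-NR (edgeR adjusted p = 4.81e-06). CLPs were below GMPs with -0.90 ± 0.16 (edgeR adjusted p = 1.60e-04) and -0.61 ± 0.19 (edgeR adjusted p = 0.012), of which total counts did not call the latter (-0.43). CLPs and HSCs did not pass the test (-0.10 and 0.12). The ratio of Prdx1 to Prdx3 CPM was 4.36 to 7.28 in CLPs, above 3.05 to 3.91 in HSCs and 2.61 to 3.45 in GMPs.

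Whether NR altered these genes was asked in each cell type, with the thresholds of the study's heatmaps, more than 3 CPM and an unadjusted p below 0.01. The methods of the study also ask for a minimum fold change in its gene lists, which was not part of the call here. None of the 10 genes passed in HSCs, CLPs or GMPs of cohort 2, by edgeR's quasi-likelihood test or by DESeq2, and none had an unadjusted p under 0.05 by either tool. Of all genes tested, 0.726% were called in HSCs, 0.412% in CLPs and 0.986% in GMPs, and none of those had an edgeR adjusted p below 0.05. With a fold above 1.5 asked for as well, an alternative chosen after the data were seen, the shares of all genes were 0.184%, 0.357% and 0.104%. With 1 factor of unwanted variation (RUVr), Prdx1 passed in CLPs (0.38, edgeR adjusted p = 0.281). That fit called 660 of all genes in CLPs, in place of 82. In HSCs the largest difference was that of Prdx3, with 20.3, 20.3, 22.4 and 19.1 CPM in O-WT and 21.3, 22.4, 22.4 and 25.5 CPM in O-NR, a log2 difference of 0.19 (95% interval -0.07 to 0.45). Cat gave 72.5, 63.3, 62.6 and 59.3 CPM in O-WT and 51.0, 56.0, 61.6 and 57.4 CPM in O-NR HSCs, -0.16 (95% interval -0.40 to 0.08). The groups overlapped for both genes. Txnip, which is known to follow glucose supply, gave 0.11 (95% interval -0.35 to 0.57) in HSCs, and Foxo3 0.11 (95% interval -0.14 to 0.36). In CLPs the values ran from -0.21 for Txnip to 0.36 for Prdx3 on the log2 scale. The intervals were wide, as for Txnip, -0.21 (95% interval -0.65 to 0.23), Prdx1, 0.34 (95% interval -0.08 to 0.77), and Prdx3, 0.36 (95% interval -0.09 to 0.82). Of the 10 values in CLPs 7 were positive on TMM scaling, whereas total counts gave 7 negative (-0.34 to 0.23, none called). The receptor gene level as a covariate, an alternative also chosen after the data were seen, gave 7 negative too (-0.31 to 0.33, none called). In GMPs the values lay between -0.06 for Gpx1 and 0.13 for Prdx3 and the widest interval was -0.12 to 0.38, for Prdx3. These intervals allow changes of any size within them, so no equality is shown. The median of all genes was -0.0050 in CLPs on TMM scaling and -0.17 with total counts.

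**Figure D3:**
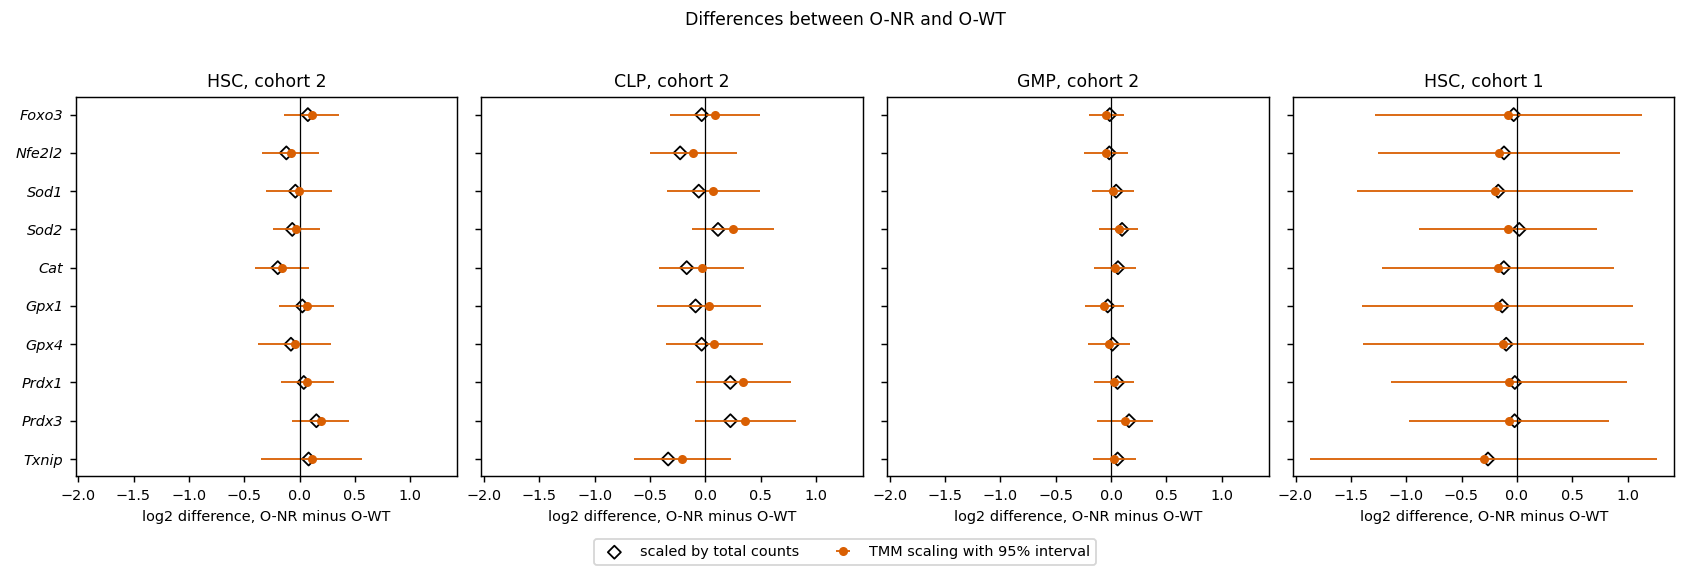
Log2 differences between O-NR and O-WT (x axis) for the 10 genes (y axis) in HSCs, CLPs and GMPs of cohort 2 and HSCs of cohort 1, as circles on TMM scaling with 95% intervals and as open diamonds when scaled by total counts. Every interval crosses 0, and those of cohort 1, with 2 O-WT libraries, are the widest.

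Whether NR acted unequally in the cell types was tested as an interaction over the 24 libraries of cohort 2. None of the 10 genes passed for HSCs against CLPs (0.421% of all genes called), HSCs against GMPs (0.133%) or CLPs against GMPs (0.439%). None had an unadjusted p under 0.05 by edgeR or DESeq2. The largest in size were Prdx1 between CLPs and GMPs, 0.41 (95% interval -0.11 to 0.92) on the log2 scale, and Txnip between HSCs and CLPs, 0.33 (95% interval -0.32 to 0.98).

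Cohort 1 repeated the NR comparison in HSCs and added withdrawal. Of its 9 libraries, 4 stood apart in the receptor gene level, O-NR replicates 1 and 2 (14395 and 14277 CPM) and O-NR-RC replicates 2 and 3 (15260 and 14608 CPM), and the other 5 lay between 4445 and 9082 CPM. None of the 10 genes passed at an unadjusted p below 0.01 for O-NR against O-WT (0.048% of all genes called), O-NR-RC against O-NR (0.036%) or O-NR-RC against O-WT (0.078%), and none had an unadjusted p under 0.05 by edgeR or DESeq2. Txnip stood at 562 and 481 CPM in O-WT, 349, 295, 602 and 491 CPM in O-NR and 585, 311 and 359.9 CPM in O-NR-RC. Foxo3 was at 161 and 148 CPM in O-WT, 123, 119.6, 173 and 188 CPM in O-NR and 154, 112 and 119 CPM in O-NR-RC. Gpx4 measured 60.1 and 59.2 CPM in O-WT, 42.9, 39.2, 66.3 and 74.3 CPM in O-NR and 73.4, 38.2 and 39.0 CPM in O-NR-RC. In each of the 3 genes the O-NR libraries split into a low and a high pair, and O-NR-RC into 1 high and a low pair, so the groups overlapped. Sod2 was at 51.7 and 47.6 CPM in O-WT, 53.1, 46.9, 49.0 and 51.9 CPM in O-NR and 49.8, 55.6 and 50.7 CPM in O-NR-RC. Its libraries showed no such split. The log2 differences were small beside their intervals, as for Txnip with -0.30 (95% interval -1.87 to 1.27) for O-NR against O-WT, -0.01 (95% interval -1.41 to 1.39) for O-NR-RC against O-NR and -0.31 (95% interval -1.97 to 1.35) for O-NR-RC against O-WT. For the remaining genes the point values ran from -0.20 (Sod1) to -0.07 (Prdx1 and Prdx3), from -0.25 (Foxo3) to 0.01 (Sod2) and from -0.34 (Cat) to -0.07 (Sod2) in these comparisons.

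The split followed the receptor gene level of the libraries. In the 4 libraries above 10000 CPM of receptor genes Txnip was 295 to 359.9 CPM against 481 to 602 in the other 5, Gpx4 38.2 to 42.9 CPM against 59.2 to 74.3 and Foxo3 112 to 123 CPM against 148 to 188, with no overlap. The same held for Nfe2l2, Sod1, Cat, Gpx1 and Prdx1, while Sod2 and Prdx3 overlapped. The share of all genes that split this way was not counted, so the split is not shown to be particular to these genes. Over genes at large, chi-square per degree of freedom was 53.1 to 71.75 between O-NR replicates 1 or 2 and 3 or 4. Within those pairs it was 1.96 and 3.84. In O-NR-RC it was 101.5 and 73.2 between replicate 1 and replicates 2 and 3, and 4.02 between these. Over the 10 genes the mean of the other 5 libraries was 0.970 (Sod2) to 1.67 (Gpx4) times that of the 4. Over the 9 libraries, Pearson correlations of log2 CPM with the log2 receptor level ran from -0.97 (Gpx4) to -0.75 (Prdx3) in 9 genes and were 0.19 for Sod2, a description of points that share their libraries and depth. The ratio of Sod1 to Sod2 CPM was 1.13 to 1.41 in the 4 libraries and 1.88 to 2.25 in the other 5. Without the 4 libraries, an alternative chosen after the data were seen, cohort 1 is left with 2 O-NR libraries and a single O-NR-RC library whose spread is taken from the other groups. In this fit the values of all 10 genes were positive for O-NR against O-WT (0.16 to 0.38 on the log2 scale, none called). They were also positive for O-NR-RC against O-WT (0.33 to 0.64), with Gpx1 at 0.55 and Gpx4 at 0.64. As O-NR-RC has 1 library here, no calls are read from its comparisons. For O-NR-RC against O-NR the values were positive in 9 of 10 genes (-0.03 to 0.30), where all 9 libraries gave 9 of 10 negative. With all 9 libraries kept and the receptor gene level as a covariate, no gene was called. The values were then -0.14 to 0.06 for O-NR against O-WT, 5 of 10 negative, where the fit without it gave 10 of 10. They stayed negative in 9 of 10 genes for O-NR-RC against O-NR (-0.22 to 0.03) and in 9 of 10 for O-NR-RC against O-WT (-0.23 to 0.07). With 1 factor of unwanted variation taken out (RUVr), 4 genes passed for O-NR against O-WT (Sod1, Gpx1, Gpx4 and Txnip, lower). For O-NR-RC against O-NR 2 passed (Foxo3 and Prdx1), and for O-NR-RC against O-WT 8 (all but Sod2 and Prdx3, lower). Of all 33350 genes tested, this fit called 3737 for O-NR against O-WT and 4688 for O-NR-RC against O-WT. The main fit called 16 and 26. For O-NR-RC against O-NR the RUVr count of all genes is not given here, so its 2 calls are not shown to be particular to these genes. The median of all genes was -0.0067 on TMM scaling and 0.16 with total counts for O-NR against O-WT, and 0.01 and 0.30 for O-NR-RC against O-WT.

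**Figure D4:**
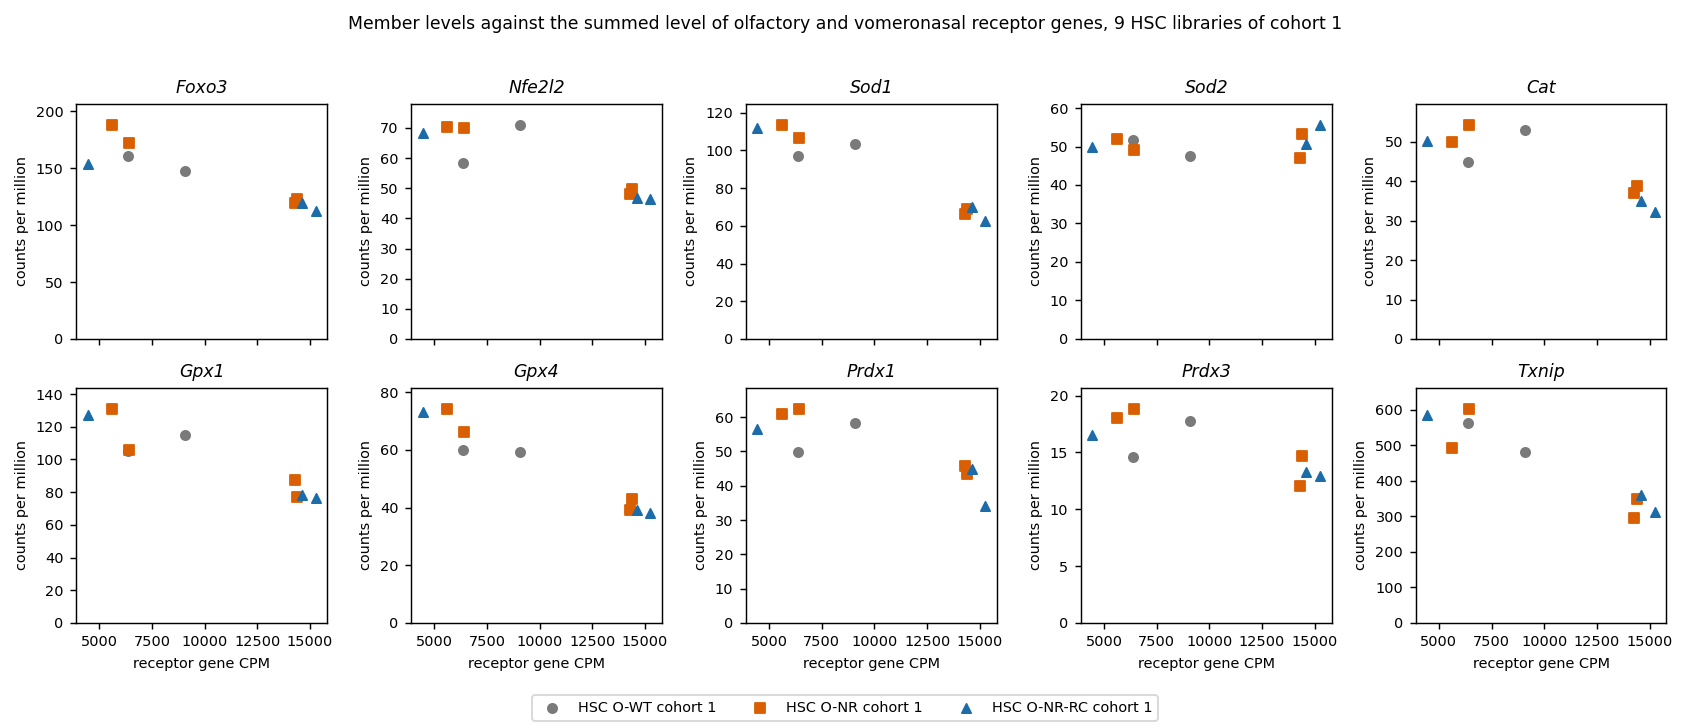
CPM of each gene (y axis, starting at 0) against the summed CPM of 1971 olfactory and vomeronasal receptor genes (x axis) in the 9 HSC libraries of cohort 1, marked by group. The 4 libraries above 10000 CPM of receptor genes, 2 O-NR and 2 O-NR-RC, lie below the other 5 in every panel but those of Sod2 and Prdx3.

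Both cohorts were also fitted together with a cohort term, 6 untreated and 8 NR libraries of HSCs. None of the 10 genes was called (0.103% of all genes were, 0.047% with a fold above 1.5), and none had an unadjusted p under 0.05 by edgeR or DESeq2. The values lay between -0.13 for Cat (95% interval -0.45 to 0.19) and 0.12 for Prdx3 (-0.20 to 0.44), and Txnip gave -0.03 (95% interval -0.56 to 0.50). Of the 10 values 7 were negative, and without the 4 high-receptor libraries 9 were positive (-0.03 to 0.24, none called). The difference in NR effect between the cohorts was called for none (0.137% of all genes called, none of the 10 under 0.05 by edgeR or DESeq2), the largest being Txnip with 0.41 (95% interval -0.70 to 1.53). All 10 differences were positive on TMM scaling, coded as cohort 2 minus cohort 1. Total counts gave 3 negative and 7 positive (-0.09 to 0.34). Without the 4 high-receptor libraries all 10 were negative (-0.37 to -0.04), and with the receptor gene level as a covariate 4 were negative and 6 positive (-0.13 to 0.19), none called in either. As for the level itself, Txnip in O-WT HSCs was at 562 and 481 CPM in cohort 1 and 1107, 516, 1043 and 943 CPM in cohort 2, a difference in which cohort and receptor gene level cannot be told apart.

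The 10 genes belong to a wider network, described with 10 lists of 75 textbook genes. Between CLPs and HSCs, 9 of 74 tested list genes were called higher and 23 lower in O-WT, and 15 higher and 27 lower of 72 in O-NR. GMPs against HSCs gave 31 higher and 24 lower of 73 in O-WT and 30 and 22 of 71 in O-NR, and CLPs against GMPs 15 higher and 38 lower of 72 and 15 and 39 of 71. With total counts these splits became 17 to 21 and 17 to 27, 28 to 32 and 28 to 28, and 20 to 33 and 18 to 31, in the same order. The calls for all genes given above, 27% to 65.2%, and their directions are the background to the counts on TMM scaling. For total counts the share of all genes called is not given here.

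Of the enzymes that make glutathione and supply NADPH, the electron source of the peroxidases, 7 of 11 were called higher and 2 lower in GMPs than in HSCs in both treatments, led by glutathione reductase Gsr (3.27 in O-WT and 3.22 in O-NR on the log2 scale). Pairs of values that follow are log2 differences in this order. In CLPs against GMPs 8 of 11 were lower and 1 higher in O-WT and 8 of 10 lower in O-NR (1 to 7 with total counts), again with Gsr the largest (-3.92 and -3.65). Against HSCs 4 of 11 were lower in both with 0 and 1 higher (1 to 3 and 3 to 4, higher to lower, with total counts), led by the glutamate-cysteine ligase subunit Gclm (-2.07 and -1.59). Nfe2l2's partners and textbook targets were lower in CLPs than in HSCs in 6 of 11 (O-WT) and 5 of 11 (O-NR), with 0 and 2 higher (4 to 5 with total counts in O-WT), led by its dimer partner Mafg (-1.41 and -1.31). Against GMPs, 7 of 10 of them were lower in CLPs in both treatments and 0 and 1 higher (2 to 7 with total counts in both), with Taldo1 of the pentose phosphate pathway the largest (-1.90 and -1.76). In GMPs against HSCs 3 were higher and 3 lower in O-WT and 3 and 2 in O-NR (2 to 6 with total counts in both), the quinone reductase Nqo1 being lowest (-2.51 and -1.44).

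Among peroxiredoxins and their reductant, 3 of 5 were lower in CLPs than in HSCs in both treatments, and sulfiredoxin Srxn1, which restores overoxidised peroxiredoxins, was lower in CLPs (-2.05 and -2.56) and in GMPs (-2.23 and -2.58) than in HSCs. Prdx5 had the largest difference of the list between CLPs and GMPs (-2.21 and -2.03). In GMPs 1 of 5 was higher and 2 were lower than in HSCs, and in CLPs 1 was higher and 2 were lower than in GMPs, in both treatments (the latter 2 to 2 with total counts). Of the glutathione peroxidases and transferases, 1 of 8 was higher and 1 lower in CLPs than in HSCs in O-WT (1 and 2 of 6 in O-NR), 4 of 8 were higher and 1 lower in GMPs (3 and 0 of 7), and 1 of 7 was higher and 3 lower in CLPs than in GMPs (1 and 4 of 7). They were led by Gstm1, lower in CLPs than in HSCs (-3.04 and -2.73) and GMPs (-4.62 and -4.20), and by microsomal Mgst1, higher in GMPs than in HSCs (2.61 and 2.27). In the thioredoxin and glutaredoxin system, GMPs had 5 of 9 higher and 3 lower in O-WT and 6 higher and 2 lower in O-NR (5 to 3 with total counts) against HSCs, led by Glrx5 of iron-sulfur assembly (1.53 and 1.38). CLPs had 6 of 9 lower and 1 higher against GMPs in both treatments (2 to 5 and 1 to 3, higher to lower, with total counts), led by Glrx (-1.18 and -0.90). CLPs against HSCs gave 0 higher and 2 lower in O-WT (3 to 2 with total counts) and 2 and 1 in O-NR, with Glrx2 the largest in common (-0.73 and -0.80). Of the 2 further genes of superoxide dismutation, called the same way in both treatments were Ccs, the copper chaperone of Sod1, lower in CLPs than in HSCs (-0.93 and -0.88) and GMPs (-1.02 and -0.74), and extracellular Sod3, higher in CLPs than in GMPs (1.83 and 1.48). With total counts Ccs was called in CLPs against HSCs in O-NR alone and not against GMPs. Neither gene was called between GMPs and HSCs, where Sod3 was tested in O-WT alone and was lower there with total counts.

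The FoxO family and its textbook targets were mostly lower in GMPs than in HSCs, 7 of 9 in each treatment with 1 and 0 higher (0 to 8 in O-WT with total counts), led by Foxo1 (-2.20 and -2.16). Against GMPs, 5 of 10 were higher and 2 lower in CLPs in both treatments (6 to 0 and 5 to 0 with total counts), and Foxo1 again differed most (2.96 and 3.29). CLPs against HSCs gave 3 higher and 2 lower of 10 in O-WT and 3 and 6 in O-NR, led by the quiescence factor Klf2 (1.39 and 1.84). Of Txnip's arrestin relatives and the sugar sensing genes, 3 of 7 (O-WT) and 4 of 7 (O-NR) were lower in CLPs than in HSCs and none higher, led by Arrdc4 (-2.45 and -3.12). Of the same list 4 and 5 of 7 were lower in GMPs with 1 higher, led by the glucose transporter Slc2a3 (-2.93 and -2.77). CLPs against GMPs gave 4 higher in both treatments and 1 and 2 lower (4 to 1 in O-NR with total counts), the largest being Mlx (-1.64 and -1.42), a partner of the carbohydrate response factors.

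The phagocyte oxidase and peroxidase, which produce oxidants, ran highest in GMPs: 7 of 7 were higher than in HSCs in both treatments, with myeloperoxidase Mpo, also one of the GMP markers, at 12.03 and 12.55. In CLPs 5 of 7 were above HSCs (Mpo 6.12 and 6.92) and 6 of 7 below GMPs (Mpo -5.85 and -5.53) in both treatments. Several neutrophil and granule genes stood higher in CLPs than in HSCs beside this. Means in CLPs and HSCs were 26.03 and 0.940 CPM for S100a9 and 25.3 and 2.00 for Ngp. They were 23.8 and 5.19 CPM for Ltf and 20.5 and 0.590 for Elane. The granule gene Prtn3 went the other way, with means of 17 CPM in CLPs and 97.1 in HSCs. The part of such genes in the oxidase and peroxidase values was not tested. Of the 4 methionine sulfoxide reductases, 2 were higher and 2 lower in GMPs than in HSCs, with Msrb1 at 3.31 and 3.45. In CLPs 1 was lower than in HSCs with 0 and 1 higher, and against GMPs 1 was higher with 2 and 1 lower (1 to 1 in both with total counts). Msrb2 was lower in CLPs than in HSCs (-1.02 and -1.27) and Msrb1 lower in CLPs than in GMPs (-2.76 and -2.52). All pairs of values given for these lists were called at an edgeR adjusted p below 0.05 in both treatments.

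**Figure D5:**
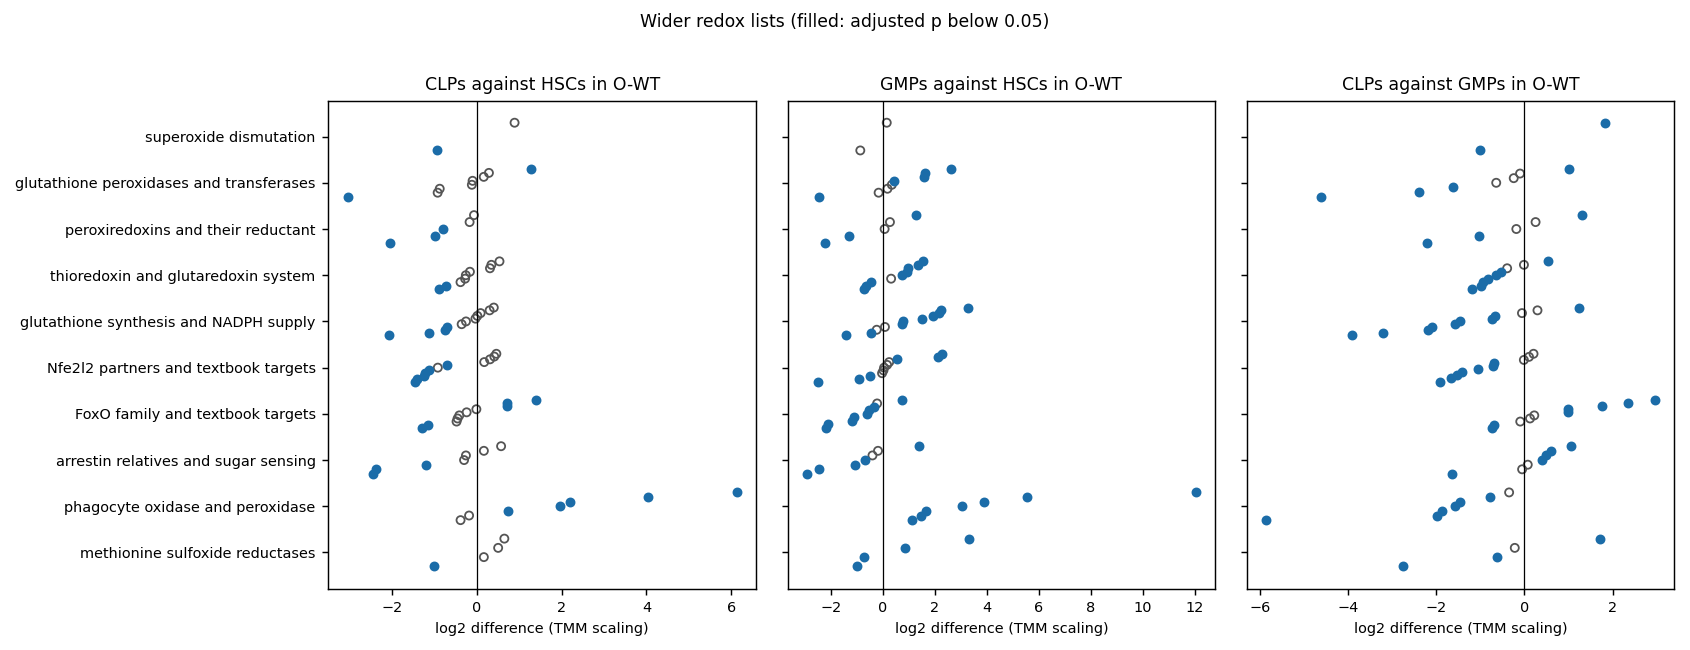
Log2 differences between cell types in O-WT on TMM scaling (x axis, ranges differ between panels) for each gene of the 10 wider lists (rows), filled where the edgeR adjusted p was below 0.05. All 7 phagocyte oxidase and peroxidase genes lie to the right for GMPs against HSCs, and most glutathione and NADPH genes lie to the left for CLPs against GMPs.

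NR called 1 of 74 list genes in HSCs of cohort 2, 1 of 71 in CLPs and 0 of 69 in GMPs, beside the shares of all genes given above. It called 0 of 75 in each of the 3 comparisons of cohort 1 and over both cohorts. At an unadjusted p under 0.05 edgeR had 3 in GMPs, 1 for the NR effect of cohort 1 and 0 in the other comparisons without a call. DESeq2 called none of these. The gene in HSCs was Arrdc3, a relative of Txnip that takes part in the trafficking of membrane receptors, with 39.7, 28.5, 48.0 and 32.2 CPM in O-WT and 59.4, 42.0, 52.3 and 60.9 CPM in O-NR. Its log2 difference was 0.56 ± 0.16 (SE; 95% interval 0.22 to 0.91, edgeR adjusted p = 0.995), 1.48-fold and so under a fold of 1.5, and the groups overlapped. It passed the unadjusted threshold in 5 of 8 fits that left out 1 library (not without O-WT replicate 4 or O-NR replicates 1 or 4, with 0.52 to 0.53). In CLPs it was Arrdc4, with 16.7, 14.5, 26.7 and 16.3 CPM in O-WT and 14.8, 9.67, 7.82 and 7.65 CPM in O-NR. Its log2 difference was -0.73 ± 0.26 (95% interval -1.26 to -0.19, edgeR adjusted p = 1), and the groups overlapped. It passed in 2 of 8 such fits (only without O-WT replicate 2 or O-NR replicate 1, the other 6 giving -0.71 to -0.60), and it did not pass without the filter on low counts (-0.66) or in DESeq2. Neither call held after adjustment over all genes.

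Over the 24 libraries of cohort 2, the genes whose log2 CPM followed each member most closely among 22573 were found by Pearson's r, a description in which the points share cell type, depth and scaling. For Txnip they were Soga1 (0.9902) and Sgms1 (0.9879), and for Gpx1 Tkt (0.9911) and Phka2 (0.9876). Foxo3 was followed by Nbeal2 (0.9866) and Wdr13 (0.9770) and Nfe2l2 by Stxbp2 (0.9752) and Rab6a (0.9732). They were Rpl11 (0.9863) and Akt1 (0.9827) for Sod1 and Eef1a1 (0.9831) and Rpl12 (0.9789) for Gpx4. The remaining nearest pairs were Wdr92 (0.9523) and Rab1a (0.9512) for Sod2, Usf2 (0.9303) and Pcm1 (0.9231) for Cat, Polr2a (0.9622) and Ly6e (0.9527) for Prdx1 and Tex10 (0.9548) and Tbrg4 (0.9457) for Prdx3. Within the 6 groups of cohort 2, after the group means were taken off, the r of Txnip with its pair was 0.706 and 0.646. With total counts that of Cat with its pair was 0.734 and 0.642.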

How the data were processed

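RNA from sorted cells was made into libraries with a strand-keeping kit for small inputs and sequenced in pairs. Per the labels and the study's methods, the authors trimmed reads with Trim Galore and cutadapt, aligned them to mm10 (STAR), used featureCounts to assign them to genes and deposited raw counts with no normalization, 1 table per library. The versions of STAR and featureCounts, the strand setting and the treatment of reads with several matches are not given in the sources used here. CPM were computed on total counts. Differences were fitted in R 4.3.3 with edgeR 4.0.16 (quasi-likelihood test, TMM factors), on genes that exceeded 3 CPM in enough libraries to fill the smaller group. A treatment difference was called at an unadjusted p below 0.01, as in the heatmaps of the study, without the minimum fold change its gene lists also used, and a cell type difference at a Benjamini-Hochberg adjusted p below 0.05, adjusted over all genes tested. Intervals are at 95%.

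Each cell type comparison used the libraries of 1 treatment, each comparison of treatments those of 1 cell type and cohort, with all 3 groups of cohort 1 in 1 fit. Interactions were fitted over the 24 libraries of cohort 2 or over the HSC libraries of both cohorts. DESeq2 1.42.0, other scalings, filters, a factor of unwanted variation (the study names RUV among its tools, with no settings), a replicate block and leaving out each library were tried. After the data were seen, the receptor gene level as a covariate, leaving out 4 libraries, TMM on genes above 30 CPM and a fold above 1.5 were added. The names of the deposited tables carry a number that HSC, CLP and GMP libraries of the same treatment and replicate share, a hint of a shared mouse that the labels do not state. The cell type fits reported are unpaired, and the number was used only in the replicate block. The deviations of same-numbered libraries correlated at 0.121 to 0.359 for HSCs and CLPs in O-WT, and did not all exceed 0.1 in the other such pairs. In O-WT they were -0.473 to -0.014 for HSCs and GMPs and -0.451 to 0.009 for CLPs and GMPs. In O-NR they were -0.364 to 0.058 for HSCs and CLPs, -0.207 to 0.073 for HSCs and GMPs and 0.028 to 0.166 for CLPs and GMPs. Within each group, no pair of libraries agreed within sampling noise, so all were kept. The lowest chi-square per degree of freedom was 1.96, between O-NR replicates 1 and 2 of cohort 1. Pairs of libraries from different groups were not compared in this way.

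All 10 members were named. Of each wider list, the gene with the smallest p among those called was named for treatments, and for cell types the one with the largest log2 difference among those called the same way in O-WT and O-NR. The members, lists, markers and tests were chosen with earlier results of these data known. The fits were tested on simulated data. Exon lengths and positions came from Gencode M21, while the authors counted on M22.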

Additional observations from a re-analysis of the deposited data

Results flagged for a closer look

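In 5 of 70 combinations of a member and a group of 4 libraries (7.14%), the highest or lowest library stood away from the others by Dixon's ratio. Chance alone gives this in about 1 in 20 separate sets, while these combinations share libraries between members. Sod2 stood at 48.13 CPM in O-NR HSC replicate 4 of cohort 2, against 44.34 to 44.56 in the other 3 libraries. In GMPs, Sod2 was 51.51 CPM in O-NR replicate 4, against 60.53 to 61.76. Gpx4 was 82.74 CPM in O-NR HSC replicate 3 of cohort 2, against 61.48 to 63.79. It was 30.05 CPM in O-WT CLP replicate 3, against 49.01 to 52.28, and this library had the highest receptor gene level of cohort 2, 8303 CPM. Prdx3 was 24.5 CPM in O-WT GMP replicate 4, against 32.6 to 32.8.

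No member's NR effect differed between cell types or cohorts at the threshold. Of the wider lists, Bcl6, a transcriptional repressor counted among FoxO targets, did in both comparisons. Its NR effect was larger in HSCs of cohort 2 than in CLPs by 1.04 ± 0.32 on the log2 scale (SE; unadjusted threshold passed, edgeR adjusted p = 1), from 0.33 in HSCs and -0.70 in CLPs, and the difference passed in 24 of 24 fits that left out 1 library. Between the cohorts it differed by 1.07 ± 0.33 (edgeR adjusted p = 0.979), from 0.33 in cohort 2 and -0.76 in cohort 1, and passed in 10 of 14 such fits. Without O-WT replicates 1 or 2 of cohort 1, O-WT replicate 4 or O-NR replicate 3 of cohort 2, Bcl6 gave 0.92 to 1.097 and did not pass. Both comparisons share the HSC libraries of cohort 2.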

How the results depend on the processing

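Of 3710 values of the 10 genes under alternatives, 3544 kept their side of the threshold and either their direction or, for uncalled values, a sign change of under 1 SE, 62 lost a call, 58 gained one, 37 uncalled values changed sign by 1 SE or more, and 9 reversed with a call on either side. For CLPs against GMPs in O-WT, Foxo3 became 0.21 with TMM on genes above 30 CPM, Cat 0.023 with upper quartile scaling, 0.048 with total counts and 0.12 with TMM above 30 CPM, and Prdx1 0.29, 0.31 and 0.38 in the same order. Without the 4 libraries of cohort 1 with high receptor gene levels, Gpx1 became 0.55 and Gpx4 0.64 for O-NR-RC against O-WT, with 1 O-NR-RC library left. The cause was not tested. With 1 RUVr factor the number called was 1 for NR in CLPs (Prdx1), 4 for O-NR against O-WT, 2 for O-NR-RC against O-NR and 8 for O-NR-RC against O-WT in cohort 1, in place of 0. The RUVr counts of all genes called are given with the main results, other than for O-NR-RC against O-NR. Without a CPM filter 3 genes were called for CLPs against HSCs and 4 for GMPs against HSCs in O-WT, in place of 6 and 7.

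Leaving out 1 library at a time gave 3 to 7 calls for CLPs against HSCs in O-WT (3 without CLP O-WT replicate 2) and 5 to 7 in O-NR, 6 to 9 and 8 to 9 for GMPs against HSCs, 7 to 9 in both treatments for CLPs against GMPs, and 0 in all treatment comparisons. The replicate block between cell types changed no call of the 10 genes other than the 2 of Prdx1. Between treatments the numbers are shared by different mice, and there the block called none of the 10 genes except in the cohort difference, where it called 8 and left O-NR replicates 3 and 4 of cohort 1 without a partner. For that difference the block called 3813 of all genes tested, in place of 32, so the 8 calls are not shown to be particular to these genes. Cohort 1 rests on 2 O-WT libraries. Counts of all genes called moved by under 1.5 times in the cell type comparisons and by more in the treatment comparisons. For NR in cohort 2 they were 32 (fold above 1.5) to 563 (RUVr) against 126 in HSCs, 42 (without CLP O-WT replicate 2) to 660 (RUVr) against 82 in CLPs and 14 (fold above 1.5) to 366 (no CPM filter) against 133 in GMPs. In cohort 1 they were 4 to 3737 (RUVr) against 16 for O-NR against O-WT and 3 to 4688 (RUVr) against 26 for O-NR-RC against O-WT. For O-NR-RC against O-NR the lowest was 7 against 12. The highest there came without the 4 high-receptor libraries, a fit with 1 O-NR-RC library. Over both cohorts they were 11 to 222 against 24. The differences in NR effect gave 78 to 596 against 95 (HSCs and CLPs), 18 to 217 against 30 (HSCs and GMPs), 51 to 468 against 99 (CLPs and GMPs) and 6 to 3813 against 32 (cohorts).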
